A study of Homo sapiens with 4 samples.

Results

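ATP-binding cassette (ABC) transporters are membrane pumps that spend ATP to move drugs, conjugated metabolites, lipids or porphyrins across a membrane. Each works by coupling nucleotide-binding domains to membrane-spanning domains, and some are known for carrying anticancer drugs out of tumour cells. The 10 genes described here were chosen by symbol: ABCB1 and ABCG2, the classic multidrug pumps, the multidrug resistance proteins ABCC1, ABCC2, ABCC3, ABCC4, ABCC5 and ABCC10, the porphyrin-linked ABCB6 and the phospholipid transporter ABCA3. They are 10 of the 26255 gene symbols measured. All 10 had a mean of at least 1 FPKM, a fragment count corrected for transcript length and for depth, over the 4 libraries and counted as expressed.

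The RNA came from A549, an established human lung adenocarcinoma line labelled WT, and there was 1 library for each of 4 groups, which were 3D hypoxia, 3D normoxia, 2D hypoxia and 2D normoxia. All cells were held for 5 days in medium with 5% serum, on a bed of solidified Matrigel (a gelled basement membrane extract) for 3D or on a plain dish for 2D, and hypoxia meant 1% oxygen. The study's question was what characterises micropapillary-like structures, which arise from these cells on Matrigel at low oxygen. Whether the libraries stem from independent cultures is not stated, and a single pair of libraries has no replicate check. With 1 library per group, each gene's error came from how unlike its hypoxia differences were in 3D and 2D, moderated by other genes. The p-values below thus measure no spread between replicates, and unlike responses in the cultures widen a gene's error. In bulk RNA, fewer cells making a transcript and less transcript per cell cannot be told apart.

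Depth inferred from the commonest low values was about 11300000 fragments in 3D hypoxia, 11700000 in 3D normoxia, 38500000 in 2D hypoxia and 23800000 in 2D normoxia. Counting errors derived from it are approximate and leave out biological and technical variation. The epithelial keratin KRT18 lay between 1721 and 3720 FPKM and the adhesion gene CDH1 between 24.6 and 37.3, but the epithelial marker EPCAM only between 1.43 and 2.73. The leukocyte gene PTPRC reached at most 0.0168 FPKM and the 3 endothelial markers at most 0.431, while the monocyte marker CD14 lay between 3.44 and 11.4 and the collagen COL1A1 reached 13.2 in 2D hypoxia. The other 5 fibroblast markers were at most 0.165 FPKM. Among these markers KRT19, an epithelial keratin, rose by 1.56 on the log2 scale in 3D relative to 2D (limma adjusted p = 0.00885). The other epithelial markers did not pass, with KRT8 and KRT18 at 0.42 each, EPCAM at -0.44 and CDH1 at -0.29. COL1A1 fell by 1.99 (limma adjusted p = 0.0436), but it had a mean of at least 1 FPKM, the minimum for the test, only through its 2D libraries. CA9, a carbonic anhydrase induced by low oxygen, was at 199.7 FPKM in 3D hypoxia against 4.05 in 3D normoxia, and at 138.5 in 2D hypoxia against 4.0 in 2D normoxia. It rose with hypoxia by limma, as did the other low-oxygen response genes EGLN3 and NDRG1, and EGLN3 also rose in 3D by 1.28 (limma adjusted p = 0.00671).

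The levels of the transporters spanned a wide scale and ABCC2 and ABCC3 stood at its top. ABCC3, a basolateral exporter of glucuronide and bile acid conjugates, lay between 150.7 and 224.0 FPKM, and ABCC2, the apical exporter of glutathione and glucuronide conjugates, between 146.2 and 216.0 FPKM. These ranges overlapped, so the pair has no order between them. Their summed share of the 10 genes' FPKM was 68.0% in 3D hypoxia, 68.5% in 3D normoxia, 56.9% in 2D hypoxia and 64.1% in 2D normoxia. In every library each of the pair exceeded at least 95.8% of the 12663 genes that passed the same 1 FPKM minimum.

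ABCC1, an exporter of glutathione conjugates and leukotrienes, followed at 62.9 to 96.7 FPKM, below both and above all others without overlap. ABCC4, which exports cyclic nucleotides and prostaglandins (27.2 to 40.0), ABCB6 (25.4 to 38.2) and ABCA3 (19.5 to 38.7) formed an overlapping middle group. ABCG2 (9.23 to 19.0) overlapped ABCC5 (7.99 to 14.0), another exporter of cyclic nucleotides. ABCC10, which carries taxanes and other drugs, lay at 4.34 to 7.11 FPKM and overlapped ABCB1 at 0.509 to 6.97. Of the 10 genes ABCB1 varied most, by 13.7-fold between its highest and lowest library, and the other 9 varied by 1.47-fold to 2.06-fold.

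**Figure D1:**
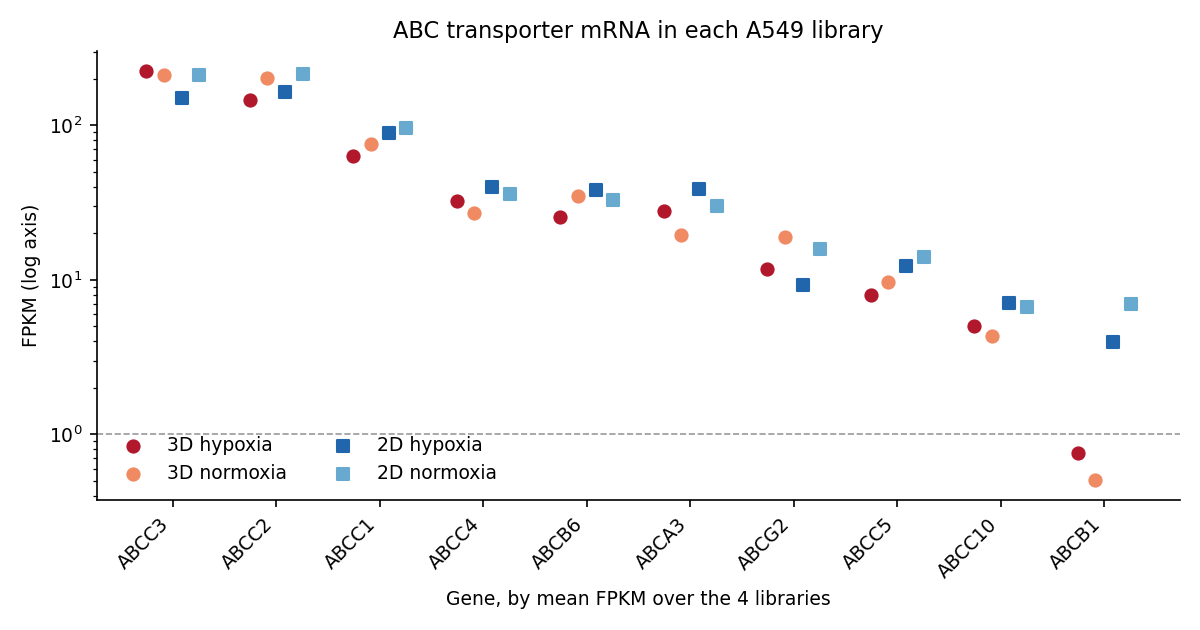
FPKM of each transporter gene (log axis) in each of the 4 libraries, 1 point per library, with genes ordered by mean FPKM and a dashed line at 1 FPKM. ABCB1 is the gene whose 3D points (0.762 and 0.509 FPKM) fall below the line while its 2D points (3.95 and 6.97) stay above it.

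ABCB1, the P-glycoprotein gene, encodes a pump for many hydrophobic drugs such as taxanes, vinca alkaloids and anthracyclines. Its level was 0.762 FPKM in 3D hypoxia and 0.509 in 3D normoxia, against 3.95 in 2D hypoxia and 6.97 in 2D normoxia. Both 3D libraries were lower than both 2D libraries. At the inferred depth these levels rested on about 41.0 and 28.5 fragments in 3D hypoxia and 3D normoxia, against 727 and 792 in 2D hypoxia and 2D normoxia. Under normoxia the 3D level was 0.0730 times the 2D level, and under hypoxia 0.193 times.

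On the log2(FPKM + 1) scale, which understates differences of low genes, ABCB1 fell by 1.95 in 3D relative to 2D as an average over both oxygen levels (SE 0.24, limma adjusted p = 0.0108). The difference was -1.49 in hypoxia (counting error 0.11) and -2.40 in normoxia (counting error 0.10). These sizes depend on the pseudocount: with 0.1 in place of 1 they were -2.23 and -3.54, and with 5 they were -0.64 and -1.12. ABCB1 was the only 1 of the 10 genes to pass 2-fold in either pair, where 6.82% of all genes passed 2-fold either way in hypoxia and 4.47% in normoxia. Its average hypoxia effect was -0.23 (SE 0.24, limma adjusted p = 0.596) and did not pass. ABCB1 met the 1 FPKM minimum only through its 2D libraries, so its entry into the test rested on the culture in which it was high. With no filter on low values the limma adjusted p for the culture effect was 0.288, and across the other alternatives that kept the gene it stayed below 0.05.

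ABCG2, the breast cancer resistance protein gene, encodes a pump that works as an assembled multimer and carries topoisomerase inhibitors, urate and porphyrins. Its level was 11.8 FPKM in 3D hypoxia and 9.23 in 2D hypoxia, against 19.0 in 3D normoxia and 15.9 in 2D normoxia. Both hypoxic libraries were lower than both normoxic libraries. The hypoxia difference was -0.65 in 3D (counting error 0.07) and -0.73 in 2D (counting error 0.05). As an average over both cultures ABCG2 fell by 0.69 on the log2 scale (SE 0.11, limma adjusted p = 0.0372). The call was lost, at adjusted p values from 0.0525 to 0.438, with a pseudocount of 5, with equal library medians, with no mean-variance trend and with no filter on low values. Its culture effect was 0.28 (SE 0.11, adjusted p = 0.125) and did not pass.

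ABCG2 was the only 1 of the 10 genes that changed with hypoxia, with 1 lower and 0 higher by limma, while 4.84% of the 12663 genes were called, 1.64% lower and 3.2% higher. At an unadjusted limma p under 0.05 for hypoxia there were 3 of the 10 genes, ABCG2, ABCC2 and ABCA3, and 3242 of the 12663 genes. The 10 genes had a median hypoxia effect of -0.19 and the 12663 genes one of -0.01, with 7 of the 10 genes and 6553 of all genes below 0. After each library was rescaled to an FPKM sum of 1000000, the median of all genes moved to -0.14 for hypoxia, the share called higher among all called genes was 38.9% in place of 66.1%, and ABCG2 still passed, again as the only 1 of the 10.

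ABCC2 was at 146.2 FPKM in 3D hypoxia and 163.5 in 2D hypoxia, against 203.0 in 3D normoxia and 216.0 in 2D normoxia, so the hypoxic libraries were again the lower pair. Its average hypoxia effect of -0.44 (SE 0.13, limma adjusted p = 0.11) did not pass. ABCC3 had a different pattern, with 224.0 FPKM in 3D hypoxia, 211.3 in 3D normoxia, 150.7 in 2D hypoxia and 211.2 in 2D normoxia. The 2D hypoxia library was low and the other 3 lay close together. Neither average effect of ABCC3 passed (hypoxia -0.20, limma adjusted p = 0.511, culture 0.28, limma adjusted p = 0.269).

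ABCA3 loads phospholipid into the lamellar bodies of alveolar type II cells, the organelles that store surfactant. Its level was 28.0 FPKM in 3D hypoxia and 19.5 in 3D normoxia, against 38.7 in 2D hypoxia and 30.1 in 2D normoxia. At each oxygen level 3D was lower than 2D, and in each culture hypoxia was higher than normoxia. ABCA3 fell by 0.53 on the log2 scale in 3D relative to 2D (SE 0.12, limma adjusted p = 0.0319). Its hypoxia effect of 0.43 (SE 0.12, adjusted p = 0.0992) did not pass. Other alveolar type II markers were near 0 in these libraries, with SFTPB, a surfactant protein, at most 0.0143 FPKM, SFTPC at most 0.1 and the lamellar body protein LAMP3 at most 0.195, and NAPSA, an aspartic protease of these cells, at 0.812 to 2.06.

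ABCC5 was at 7.99 FPKM in 3D hypoxia and 9.74 in 3D normoxia, against 12.2 in 2D hypoxia and 14.0 in 2D normoxia. Both 3D libraries were below both 2D libraries, and ABCC5 fell by 0.52 on the log2 scale in 3D (SE 0.11, limma adjusted p = 0.0306). ABCC10 was at 5.03 and 4.34 FPKM in 3D hypoxia and 3D normoxia, against 7.11 and 6.69 FPKM in 2D hypoxia and 2D normoxia. Again the cultures did not overlap, and ABCC10 fell by 0.48 in 3D (SE 0.12, limma adjusted p = 0.0451). That call was lost in 5 of 7 alternatives, at adjusted p values from 0.0546 to 0.278. ABCC10 shares 79 exon bases with DLK2 on the opposite strand, and whether the counting used strand is not stated.

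ABCC1 and ABCC4 also had both 3D libraries below both 2D libraries without passing the test. How many of all genes had this order was not counted, so here and for the genes above it is a description only. ABCC1 was at 62.9 FPKM in 3D hypoxia and 75.2 in 3D normoxia, against 89.1 in 2D hypoxia and 96.7 in 2D normoxia (culture effect -0.43, SE 0.12, limma adjusted p = 0.0565). ABCC4 was at 32.4 and 27.2 FPKM in 3D hypoxia and 3D normoxia, against 40.0 and 35.9 in 2D hypoxia and 2D normoxia (-0.34, SE 0.11, limma adjusted p = 0.0831). Both passed when each library was rescaled to an FPKM sum of 1000000, at limma adjusted p values of 0.0195 and 0.0242. That scaling moved the median culture effect of all genes to -0.21, with 3132 of all genes called lower in 3D.

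By limma 4 of the 10 genes changed with culture, ABCB1, ABCC5, ABCC10 and ABCA3, all of them lower in 3D, while 22% of the 12663 genes were called, 11.6% lower and 10.4% higher. ABCB1 entered that test only through its 2D libraries, and the ABCC10 call was lost in 5 of 7 alternatives. A pair of cell type markers also changed with culture, KRT19 being at 87.1 and 71.5 FPKM in 3D hypoxia and 3D normoxia, against 23.6 and 29.1 in 2D hypoxia and 2D normoxia, and COL1A1 at 0.614 and 0.856 FPKM in 3D hypoxia and 3D normoxia, against 13.2 and 2.32 in 2D hypoxia and 2D normoxia. COL1A1 met the 1 FPKM minimum only through its 2D libraries, and the part of either marker in the transporter values was not tested. The 10 genes had a median culture effect of -0.38 with 8 below 0, and the 12663 genes one of -0.03 with 6674 below 0. Rescaling to an FPKM sum of 1000000 moved the median of all genes to -0.21, and the share called higher among all called genes was 19.7% in place of 47.1%. In that scaling 6 of the 10 genes were called lower, as were 3132 of all genes. With no filter on low values limma called 0 genes in either average effect, although 2812 genes for hypoxia and 4518 for culture had an unadjusted p under 0.05.

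**Figure D2:**
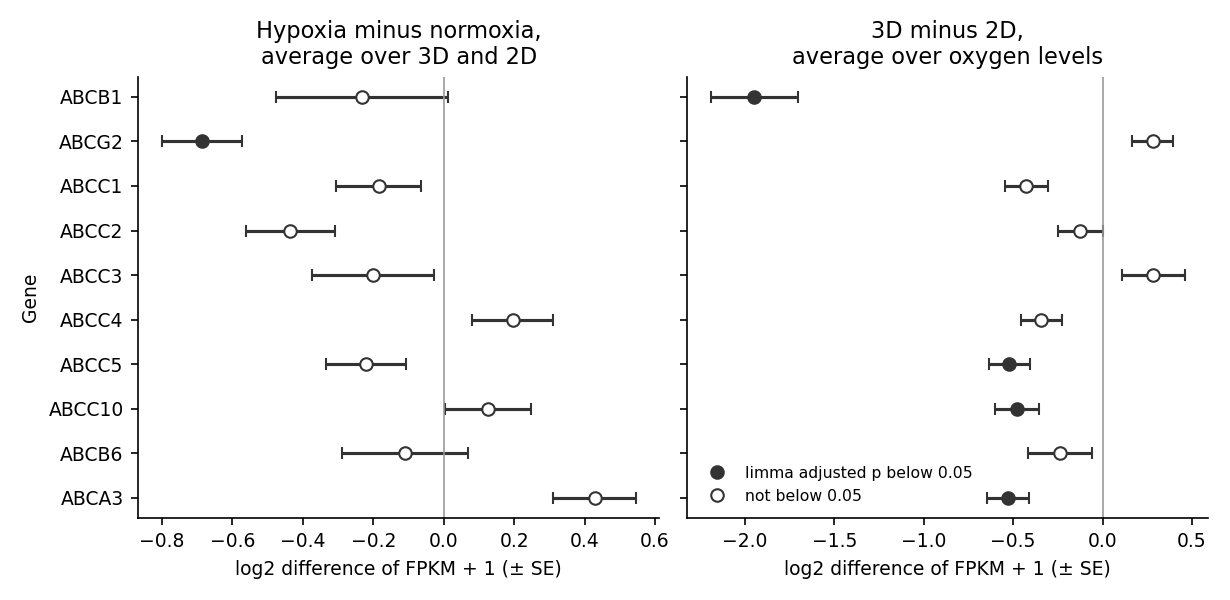
Average effects of hypoxia (left) and of 3D culture (right) on the 10 transporter genes, as the log2 difference of FPKM + 1 with its SE from limma over 4 libraries, filled where the adjusted p was below 0.05. ABCG2 is filled on the left at -0.69, and ABCB1 (-1.95), ABCC5 (-0.52), ABCC10 (-0.48) and ABCA3 (-0.53) are filled on the right.

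ABCB6, which sits in mitochondrial and other membranes and is linked to porphyrin transport, was at 25.4 FPKM in 3D hypoxia and 34.9 in 3D normoxia, against 38.2 in 2D hypoxia and 32.7 in 2D normoxia. The 3D hypoxia library was the low one. Neither of its average effects passed (hypoxia -0.11, limma adjusted p = 0.739, culture -0.24, limma adjusted p = 0.361). In GENCODE 29 a coding gene on the same strand shares 54.7% of the ABCB6 exon bases, and how the authors' counting split such fragments is not given. That gene has no row of its own among the symbols used here, and the ABCB6 values are uncertain.

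In each culture 0 of the 10 genes passed 2-fold with hypoxia, where 4.02% of all genes did in 3D and 3.6% in 2D. At such low shares 0 of 10 does not set these genes apart. The difference was beyond 2 counting errors for 8 of the 10 in 3D and 9 in 2D. ABCB1, ABCC3 and ABCB6 had differences of opposite sign in the cultures, and the share of all genes with opposite signs was not counted. ABCB1 differed by 0.22 in 3D (counting error 0.13) and by -0.69 in 2D (counting error 0.06). ABCC3 differed by 0.08 in 3D and -0.48 in 2D, with counting errors of 0.02 and 0.01. ABCB6 differed by -0.44 in 3D and 0.22 in 2D, with counting errors of 0.06 and 0.04. The sign of the small ABCC3 difference in 3D turned to -0.05 when libraries were rescaled to an FPKM sum of 1000000. In that scaling ABCC10 had opposite signs in its place, 0.07 in 3D and -0.04 in 2D, against 0.18 and 0.08 before it. The difference between the responses has no test with 1 library per group, and 0 of the 10 genes passed 2-fold in it, where 2.73% of all genes did. With a pseudocount of 0.1 ABCB1 passed it, at 1.30.

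**Figure D3:**
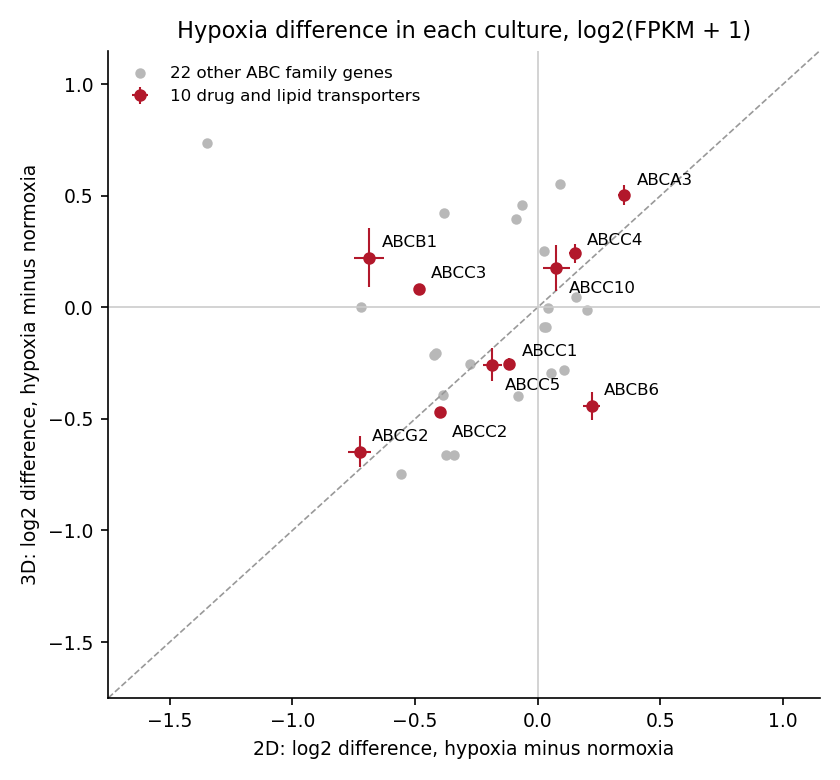
Hypoxia minus normoxia in 2D (horizontal) and in 3D (vertical) as log2 differences of FPKM + 1, with counting errors for the 10 transporter genes (red) and without for 22 other ABC family genes (grey), and a dashed line of equal difference. ABCG2 lies near the line at -0.73 in 2D and -0.65 in 3D, while ABCB1, ABCC3 and ABCB6 lie in the quadrants of opposite sign.

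Of 38 other ABC genes, 22 had a mean of at least 1 FPKM. By limma 1 of these rose and 3 fell in 3D, where 10.4% of all genes tested were called higher and 11.6% lower. ABCG1, which exports cholesterol to lipoproteins, was at 22.3 FPKM in 3D hypoxia and 13.0 in 3D normoxia, against 2.17 in 2D hypoxia and 7.06 in 2D normoxia. Both 3D libraries were higher than both 2D libraries, and ABCG1 rose by 1.83 (SE 0.45, limma adjusted p = 0.041), the opposite direction to ABCB1. That average joins unequal differences, 2.88 in hypoxia and 0.79 in normoxia. The hypoxia difference of ABCG1 also had opposite signs, 0.74 in 3D and -1.35 in 2D. TAP1 and TAP2, which together feed peptides to HLA class I, fell by 0.57 and 0.89, and ABCB8, a mitochondrial transporter, by 0.47 (limma adjusted p = 0.0256, 0.0138 and 0.0381). For hypoxia 0 of the 22 passed by limma and 5 had an unadjusted p under 0.05, as did 3242 of all 12663 genes tested. The largest hypoxia effects were in ABCA12, a lipid transporter of the skin barrier (-0.65, limma adjusted p = 0.112), and ABCF2, a family member without membrane spans (-0.52, limma adjusted p = 0.0835). ABCA12 was low, at 0.284 and 1.03 FPKM in 3D hypoxia and 2D hypoxia, against 1.16 and 1.99 in 3D normoxia and 2D normoxia. It met the 1 FPKM minimum only through its normoxic libraries, where it was high. The median effects of the 22 genes were -0.10 for hypoxia and -0.12 for culture.

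Transcription factors and sensors known to act on transporter genes were mostly expressed, 19 of 21 at a mean of at least 1 FPKM. With culture 3 of the 19 rose in 3D and 0 fell, where 10.4% of all genes tested were called higher and 11.6% lower. KEAP1, which in its intact form holds the antioxidant regulator NRF2 in check, rose by 0.52 (limma adjusted p = 0.0327). Whether KEAP1 does so in these cells was not tested. NR1H3, the sterol sensor LXR alpha, rose by 0.69 (limma adjusted p = 0.0183) and PPARA, a fatty acid sensor, by 0.66 (limma adjusted p = 0.042). With hypoxia 2 of the 19 fell, where 1.64% of all genes were called lower, HIF1A by 1.58 (limma adjusted p = 0.00976) and NR1H3 by 0.67 (limma adjusted p = 0.0414). NFE2L2, which encodes NRF2, was at 59.4 FPKM in 3D hypoxia and 50.4 in 3D normoxia, against 55.3 in 2D hypoxia and 40.1 in 2D normoxia, and passed in neither effect. The pregnane X receptor NR1I2, a drug sensor upstream of ABCB1 in liver and gut, was at 0.0315 FPKM in 3D hypoxia and listed at 0 in the other 3 libraries.

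Apical scaffold and linker genes, which tether transporters such as ABCC2 to the cortical cytoskeleton, were all expressed (7 of 7). By limma 2 rose and 1 fell in 3D, where 10.4% of all genes tested were called higher and 11.6% lower. With hypoxia 1 rose and 1 fell, where 3.2% were called higher and 1.64% lower. In 3D SLC9A3R1 and SLC9A3R2, a pair of PDZ scaffolds, rose by 1.02 and 1.37 (limma adjusted p = 0.0106 and 0.0147), and RDX, the radixin linker, fell by 0.65 (limma adjusted p = 0.0239). SLC9A3R1 was at 41.5 and 70.0 FPKM in 3D hypoxia and 3D normoxia, against 18.2 and 37.1 FPKM in 2D hypoxia and 2D normoxia. With hypoxia it fell by 0.86 (limma adjusted p = 0.0294), while PDZK1IP1, a small membrane partner of the PDZ scaffold PDZK1, rose by 1.57 (limma adjusted p = 0.0285). Of 10 lamellar body and surfactant genes only 3 had a mean of at least 1 FPKM. Of these LPCAT1, which makes surfactant phosphatidylcholine, rose with hypoxia by 1.39 (limma adjusted p = 0.00936). In 3D it fell by 0.67 (limma adjusted p = 0.0231). LPCAT1 was the only 1 of the 3 called in either effect, where 4.84% of all genes tested were called with hypoxia and 22% with culture.

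**Figure D4:**
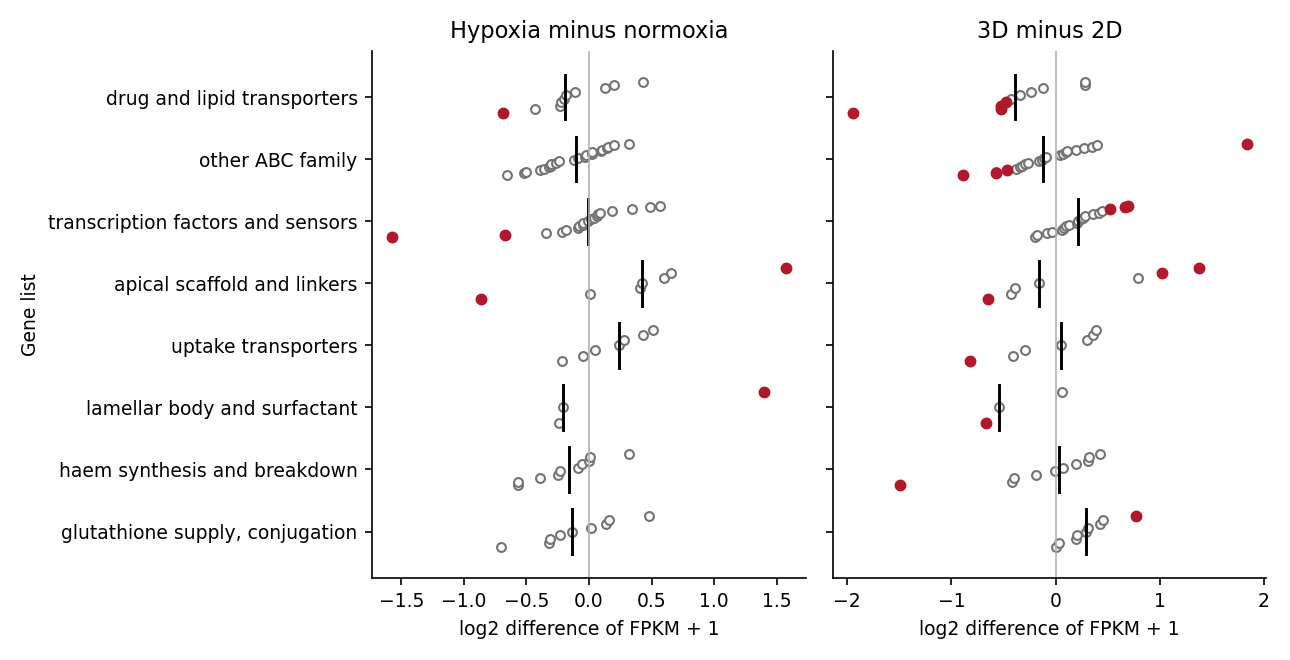
Average log2 effects of hypoxia (left) and of 3D culture (right) for the expressed genes of each list, 1 point per gene, red where limma's adjusted p was below 0.05, with the list median as a black bar. The 10 drug and lipid transporters have medians of -0.19 (left) and -0.38 (right), and the single red point far to the right in the other ABC family is ABCG1 at 1.83.

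By the smallest distance between library profiles centred on their own means, over 4 libraries and 9000 candidate genes averaging 5 FPKM or more, the genes most like ABCB1 were FGG, FZD8, FGB and PCDH9 (distances 0.43, 0.51, 0.62 and 0.62 in log2 units). FGG, the fibrinogen gamma chain, was at 21.7 FPKM in 3D hypoxia and 22.6 in 3D normoxia, against 51.2 in 2D hypoxia and 89.7 in 2D normoxia. FZD8, a Wnt receptor, was at 3.65 and 3.08 FPKM in 3D hypoxia and 3D normoxia, against 16.02 and 15.7 in 2D hypoxia and 2D normoxia. All 4 of these genes had both 3D libraries below both 2D libraries, which the choice by likeness brings about, so this is a description only.

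Promoter sequence is shown for 3 of the 5 genes that passed a test, ABCG2, which changed with oxygen, and ABCB1 and ABCA3, which changed with culture. The entry of ABCB1 into that test rested on its 2D libraries, where it was high. ABCC5 and ABCC10 also passed and are not shown. The single ABCC5 window held 0 HIF cores, and of the ABCC10 windows one held 4 and the other 0. The RefSeq promoter table (GRCh38.p14) held 14 start windows for 8 of the 10 genes, and the 250 bases before each start were searched on both strands. The HIF core, ACGTG or GCGTG, was present in 8 of 14 windows (6 of 8 genes), against 43.2% of 35116 windows of all genes, with CACGTG read as a match on each strand. Of the 5 ABCG2 windows, 88158860-88159109 overlaps both 88158640-88158889 and 88158910-88159159, so the window count holds some sites more than once. Capitals below mark the match. For ABCG2 and ABCA3 the run printed is the longest one outside annotated exons of a window chosen for holding matches, and for ABCB1 it is 30 bases around its start-proximal CCAAT box, read as ATTGG on this strand, in a stretch annotated as exon of longer ABCB1 transcripts.
ABCG2 (GRCh38.p14, chr4:88159025-88159159, minus strand, 3 matches to the HIF core): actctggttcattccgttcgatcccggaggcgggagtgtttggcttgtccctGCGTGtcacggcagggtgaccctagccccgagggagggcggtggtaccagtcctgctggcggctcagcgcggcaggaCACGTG
ABCA3 (GRCh38.p14, chr16:2340747-2340921, minus strand, 2 matches to the HIF core): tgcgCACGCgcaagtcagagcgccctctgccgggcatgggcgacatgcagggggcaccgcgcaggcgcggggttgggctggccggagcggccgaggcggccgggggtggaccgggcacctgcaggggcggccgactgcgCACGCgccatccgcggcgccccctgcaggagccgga
ABCB1 (GRCh38.p14, chr7:87600946-87600975, minus strand, CCAAT box): gtggtgaggctgATTGGctgggcaggaaca

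The CACGTG lies in overlapping windows of ABCG2, whose mRNA was lower in both hypoxic libraries, and the ABCA3 window belongs to a gene whose hypoxia effect did not pass. Of the 14 windows, 4 held the antioxidant response core TGACNNNGC (10.9% of all windows) and 2 the CCAAT box (32%), those of ABCB1 and ABCB6. The GC box GGGCGG was in 6 of the 14 windows, against 42.6% of all windows. The upstream ABCB1 window, the single ABCC2 window and 2 of the 5 ABCG2 windows held 0 matches to any of these motifs. A match is only a description of letters, and occupancy was not measured here.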

How the data were processed

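Per the labels' protocols, RNA from A549 cells was extracted with a miRNeasy Micro kit and made into libraries with a TruSeq Stranded mRNA kit. The authors deposited 1 FPKM value per symbol and library. Cuffdiff 2.2.1, TopHat2 2.1.1, SAMtools 0.1.18 and Bowtie2 2.2.8 are named, beside the build hg19, per the submitters' processing notes. Which annotation, library scaling and strand setting were used, and the depth, are points not given in these sources.

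Values were taken as log2(FPKM + 1), and the 12663 genes averaging 1 FPKM or more entered a limma fit (version 3.58.1, R 4.3.3, mean-variance trend, additive terms for oxygen and culture, with 1 residual and 4.67 prior degrees of freedom), using Benjamini-Hochberg adjustment over all of them at 0.05. Single pairs were described by size, at least 2-fold on that scale. Depth came from the modal smallest product of FPKM and length among 2135 single-transcript genes (GENCODE 29, transcripts over 1000 bases), which only 82 to 98 genes supplied. Counting errors used the longest coding transcript of each gene. The fit was tested on simulated data. Alternatives changed the pseudocount, filter, scaling and trend. Other steps ran in Python 3.11.15.

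The genes, lists and motifs were chosen with earlier results of these data known. All 10 transporters are described. From the other lists the text names each gene called and up to 4 with the largest effects. NFE2L2, NR1I2 and SLCO1B3 were named after their values were seen. The lists were other ABC family genes, transcription factors and sensors, apical scaffold genes, uptake transporters, lamellar body and surfactant genes, haem genes, glutathione genes, hypoxia check genes and cell type markers.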

Additional observations from a re-analysis of the deposited data

Results flagged for a closer look

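The hypoxia difference had opposite signs in the 2 cultures for 3 of the 10 genes, which drew attention to them. How many of all genes had opposite signs was not counted, so 3 of 10 is a description only. The difference between cultures was not tested because each group had 1 library. For ABCB1 the 3D response minus the 2D response was 0.91 on the log2 scale (0.22 in 3D, -0.69 in 2D). It was 1.30 with a pseudocount of 0.1 and 0.48 with 5, and its 3D values rested on about 41.0 and 28.5 fragments in hypoxia and normoxia. For ABCC3 it was 0.57 (0.08 in 3D, -0.48 in 2D), and the 3D value turned to -0.05 on rescaling to an FPKM sum of 1000000. For ABCB6 it was -0.66 (-0.44 in 3D, 0.22 in 2D), and its 3D difference from 2D also had opposite signs, -0.57 in hypoxia and 0.09 in normoxia, which is the same value of -0.66 read the other way. The last sign turned to -0.10 when libraries were rescaled to an FPKM sum of 1000000.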

How the results depend on the processing

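No average effect of the 10 transporter genes reversed its direction under any alternative run. Of 138 such values, 124 stayed on their side of the threshold, 12 lost the call and 2 gained it. ABCB1, ABCC5 and ABCA3 lost theirs only with no filter on low values (ABCB1 could not be fitted at a mean of at least 5 FPKM, which leaves it out). The alternatives that left ABCB1 called all kept the 1 FPKM minimum, which it met only through its 2D libraries. Without that minimum its limma adjusted p was 0.288. Of 295 pair values 56 moved beyond counting error, 37 of them on rescaling to an FPKM sum of 1000000. Over all genes, limma's hypoxia calls numbered 613, against 126 with a pseudocount of 5, 304 with equal library medians, 366 with no trend and 0 with no filter, and culture calls numbered 2785, against 0 with no filter. Genes past 2-fold numbered 509, 456, 864, 566 and 346 for hypoxia in 3D, hypoxia in 2D, 3D in hypoxia, 3D in normoxia and the difference of responses. With a pseudocount of 5 they numbered 264, 232, 370, 243 and 181. With a pseudocount of 0.1 they numbered 698 for hypoxia in 2D, 924 for 3D in normoxia and 607 for the difference of responses. For that difference a mean of at least 5 FPKM gave 227, and for 3D in normoxia a sum of 1000000 gave 899. That rescaling also lowered the share of higher genes among those past 2-fold, to 58.1% against 72.3% for hypoxia in 3D, 40.9% against 55.9% for hypoxia in 2D, 35.8% against 55.7% for 3D in hypoxia and 21.7% against 44.3% for 3D in normoxia. The causes were not tested. Leaving out a library was not run, since 3 libraries leave 0 residual degrees of freedom. The additive fit averages the hypoxia difference within each culture and the culture difference within each oxygen level. No pairing of replicates was possible because each group had 1 library. Depth limits ABCB1 most, at about 28.5 fragments in 3D normoxia.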

Other observations

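Among all genes tested, limma called 22% with culture and 4.84% with hypoxia, and 3242 of 12663 had an unadjusted p under 0.05 for hypoxia. Of 13 uptake transporters, which bring drugs, hormones or carnitine into cells, 7 had a mean of at least 1 FPKM and 1 changed with culture and 0 with hypoxia by limma, where 2 had an unadjusted p under 0.05. SLC22A5, the carnitine transporter, was at 11.6 FPKM in 3D hypoxia and 10.7 in 3D normoxia, against 24.1 in 2D hypoxia and 17.3 in 2D normoxia, and fell by 0.82 in 3D (limma adjusted p = 0.0168). SLCO1B3, an organic anion uptake carrier best known from liver, was expressed at 18.2 to 32.7 FPKM, with a hypoxia effect of 0.51 (limma adjusted p = 0.102).

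Of 10 haem genes 1 changed with culture and 0 with hypoxia by limma, where 22% and 4.84% of all genes tested were called. For hypoxia 4 of the 10 had an unadjusted limma p under 0.05, as did 3242 of all 12663 genes tested. HMOX1, which breaks haem down, was at 78.3 FPKM in 3D hypoxia and 92.2 in 3D normoxia, against 245.5 in 2D hypoxia and 236.0 in 2D normoxia, and fell by 1.49 in 3D (limma adjusted p = 0.00683). Of 9 glutathione genes, whose products supply or attach the glutathione that ABCC1 and ABCC2 export, 1 changed with culture and 0 with hypoxia by limma. The shares over all genes tested were again 22% and 4.84%. For hypoxia 3 of the 9 had an unadjusted limma p under 0.05, against the same 3242 of 12663. GSTA4, a transferase for lipid peroxidation products, was at 7.15 and 14.4 FPKM in 3D hypoxia and 3D normoxia, against 4.55 and 6.75 FPKM in 2D hypoxia and 2D normoxia. It rose by 0.77 in 3D (limma adjusted p = 0.023).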
